A study of Mus musculus with 9 samples.

Results

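The genes described here are 37 targets of the transcription factor p53, taken by gene symbol from a list and followed over 3 osteosarcoma lines and 2 states of a bone marrow stromal line. All 37 were measured, among 19938 genes in all, and each gene is represented by its brightest probe set. They fall into 11 genes of apoptosis, 6 of DNA repair and nucleotide supply, 7 of the cell cycle, 8 of metabolism, redox control and autophagy, and 5 of surface signalling and RNA binding.

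p53 is held low in unstressed cells by the ubiquitin ligase Mdm2 and accumulates when DNA is damaged or growth signals are abnormal. It binds DNA as a tetramer at pairs of a short palindromic element and switches on genes that stop division, repair DNA, adjust metabolism or kill the cell. Many of these genes also have a basal level that depends on p53, and several respond to other stress factors as well. Loss of p53 together with Rb in the osteoblast lineage gives rise to osteosarcoma in mice, which is the basis of the tumour model studied.

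The osteosarcoma group held 3 lines, named 493H, 494H and 716H in the labels, from tumours of adult C57BL/6 mice of the genotype Osx-Cre p53fl/fl Rbfl/fl. In this model the osterix (Osx) promoter drives Cre in the osteoblast lineage, and the labels describe the lines as p53-/- Rb-/- and fibroblastic. The lines came from female mice (493H and 716H) and a male mouse (494H) and were grown subconfluent below passage 8, with 1 array per line. Kusa4b10 is a mouse bone marrow stromal line, for which the labels give no genotype, and it supplied 3 undifferentiated cultures (pre-osteoblasts) and 3 cultures kept for 21 days in osteoblastic medium with ascorbate (osteoblasts). Both Kusa4b10 groups are cultures of 1 line, so p53 and Rb status and cell origin cannot be told apart in the tumour comparisons, nor can differentiation, days in culture and growth state in the culture comparison. The labels call the Kusa4b10 samples independent without saying how. Each p-value rests on a spread per gene pooled over the 3 groups, from cultures of 1 line and from 3 tumour lines. The spread between tumour lines therefore also enters the comparison of the Kusa4b10 states, unless only the Kusa4b10 arrays were fitted. The p53 gene itself and the target genes Cdkn1a and Bax were not analysed here, so the deletion was not checked on these arrays.

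Levels are log2 values per probe set, and array medians lay between 7.43 and 7.56. Differences are log2 differences of group means with the standard error (SE) of a limma fit to all 9 arrays, and a gene was called at a Benjamini-Hochberg adjusted p below 0.05 over all 19938 genes. Of the fixed osteoblast markers 5 of 6 measured were higher in osteoblasts than in pre-osteoblasts, and so were 6 of 7 adipocyte markers, against 10.3% of all genes. The mean level of the adipocyte markers lay between 11.03 and 11.82 on the osteoblast arrays, between 7.79 and 8.38 on the pre-osteoblast arrays and between 7.30 and 7.83 on the osteosarcoma arrays. The 7 measured haematopoietic markers had mean levels of 6.71 to 6.88 on all arrays. No detection calls were used, so a low level cannot be told from background. A difference in bulk RNA cannot separate fewer expressing cells from less RNA per cell.

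Promoter sequence was available from RefSeq (GRCm38.p6) for 28 of the 37 genes, in 41 windows of 300 bases that run from 250 before to 50 after a transcript start. A perfect p53 decamer, the 10-base element bound by a p53 dimer (searched by its consensus, which reads the same on both strands), occurred in 9 of the 41 windows (22%), against 8.36% of all 32851 windows. A pair of decamers with at most 2 mismatches and at most 13 bases between them occurred in 4 member windows (9.76%), against 4.09% of all windows. These 4 are all the member windows with such a pair. Of their genes, Ccng1, Cd80 and Sesn1 are described below as lower in the tumour lines. Gadd45a is described as higher in osteoblasts than in pre-osteoblasts. Each window is printed as the 250 bases before the start, with the decamers in capitals. The Ccng1 pair has 1 mismatch and no spacer and begins 195 bases before the start (chr11:40755287-40755536, minus strand). The Cd80 pair has 2 mismatches and no spacer and begins 111 bases before the start (chr16:38458683-38458932, plus strand). The Gadd45a pair has 2 mismatches and a spacer of 11 bases (chr6:67037408-67037657, minus strand), and the Sesn1 pair has 2 mismatches and a spacer of 3 (chr10:41887189-41887438, plus strand).
Ccng1: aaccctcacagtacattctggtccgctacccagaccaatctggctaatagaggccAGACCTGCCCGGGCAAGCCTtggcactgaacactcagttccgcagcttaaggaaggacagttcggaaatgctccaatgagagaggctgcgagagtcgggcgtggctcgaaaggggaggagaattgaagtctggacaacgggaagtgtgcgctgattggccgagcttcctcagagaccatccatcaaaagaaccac
Cd80: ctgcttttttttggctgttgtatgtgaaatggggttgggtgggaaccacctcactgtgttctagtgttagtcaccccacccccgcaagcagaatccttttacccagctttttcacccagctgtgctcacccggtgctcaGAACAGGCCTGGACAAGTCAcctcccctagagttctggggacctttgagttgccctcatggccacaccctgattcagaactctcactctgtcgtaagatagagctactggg
Sesn1: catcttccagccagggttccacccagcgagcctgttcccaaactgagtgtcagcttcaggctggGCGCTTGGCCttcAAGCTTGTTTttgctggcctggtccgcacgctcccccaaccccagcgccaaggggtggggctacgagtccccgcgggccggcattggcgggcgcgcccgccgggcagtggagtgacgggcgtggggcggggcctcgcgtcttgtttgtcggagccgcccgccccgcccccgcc
Gadd45a: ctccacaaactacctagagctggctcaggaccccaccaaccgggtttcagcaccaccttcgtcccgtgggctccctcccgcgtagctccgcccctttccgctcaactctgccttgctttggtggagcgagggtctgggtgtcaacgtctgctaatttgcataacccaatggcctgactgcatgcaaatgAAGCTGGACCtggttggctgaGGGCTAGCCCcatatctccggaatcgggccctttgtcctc
A match describes the letters in the window, and binding was not measured.

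The comparison of the tumour lines with each Kusa4b10 state asks how p53 target levels differ between lines of the p53-deletion model and Kusa4b10 cultures. Cd80, Eda2r, Ephx1, Pltp and Trp53inp1 were lower in osteosarcoma than in both states, by 3.28-fold to 17.3-fold. Against pre-osteoblasts 20 of the 37 genes were lower and 1 was higher, where 13.5% and 9.96% of all genes were called lower and higher. Their median difference was -0.57, against -0.02 over all genes. Against osteoblasts 16 were lower (background 12.7%) and 5 higher (14.7%), with a median of -0.33 against -0.02. Called lower against both states were 12 of the 37 genes (32.4%), against 5.49% of all genes, and Plk2 was the only one called higher against both (background 5.56%). Of these 12 genes, 10 showed no called difference between the Kusa4b10 states in the fit to all 9 arrays, a combination met by 3.79% of all genes. The members were chosen with earlier results of these data known, so these shares describe the list and are not an independent test. A further list of 24 measured p53 targets, given below, had medians of -0.08 against pre-osteoblasts and -0.01 against osteoblasts.

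The lines lay entirely below the range of the 6 Kusa4b10 arrays for 14 genes (37.8%, against 9.47% of all genes) and entirely above it for 3 genes, Plk2, Rap2b and Fbxw7 (8.11%, against 8.45%). Against the mean of both states 19 genes were lower (background 13.6%) and 3 higher (13.0%), with a median of -0.44. These targets are brighter than most genes, 32 of 37 lying above the median level, and bright genes are called more often. With only genes above the median level in the fit, 21 of the 32 remaining members were lower than in pre-osteoblasts, against 24.1% of those genes, and 15 were lower than in osteoblasts, against 21.4%. The shares outside the range of the 6 Kusa4b10 arrays were not taken among bright genes only. The number called higher against pre-osteoblasts was 3 without 716H (against 10.6% of all genes) and 2 without osteoblast replicate 2 (9.69%). The number called higher against osteoblasts was 2 without 493H, osteoblast replicate 1 or osteoblast replicate 2. It was 3 without osteoblast replicate 3 or any 1 pre-osteoblast array. In the fits leaving out each array, 11.1% to 15.8% of all genes were called higher against osteoblasts. Both comparisons use the same osteosarcoma arrays, so their results are not independent.

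**Figure D1:**
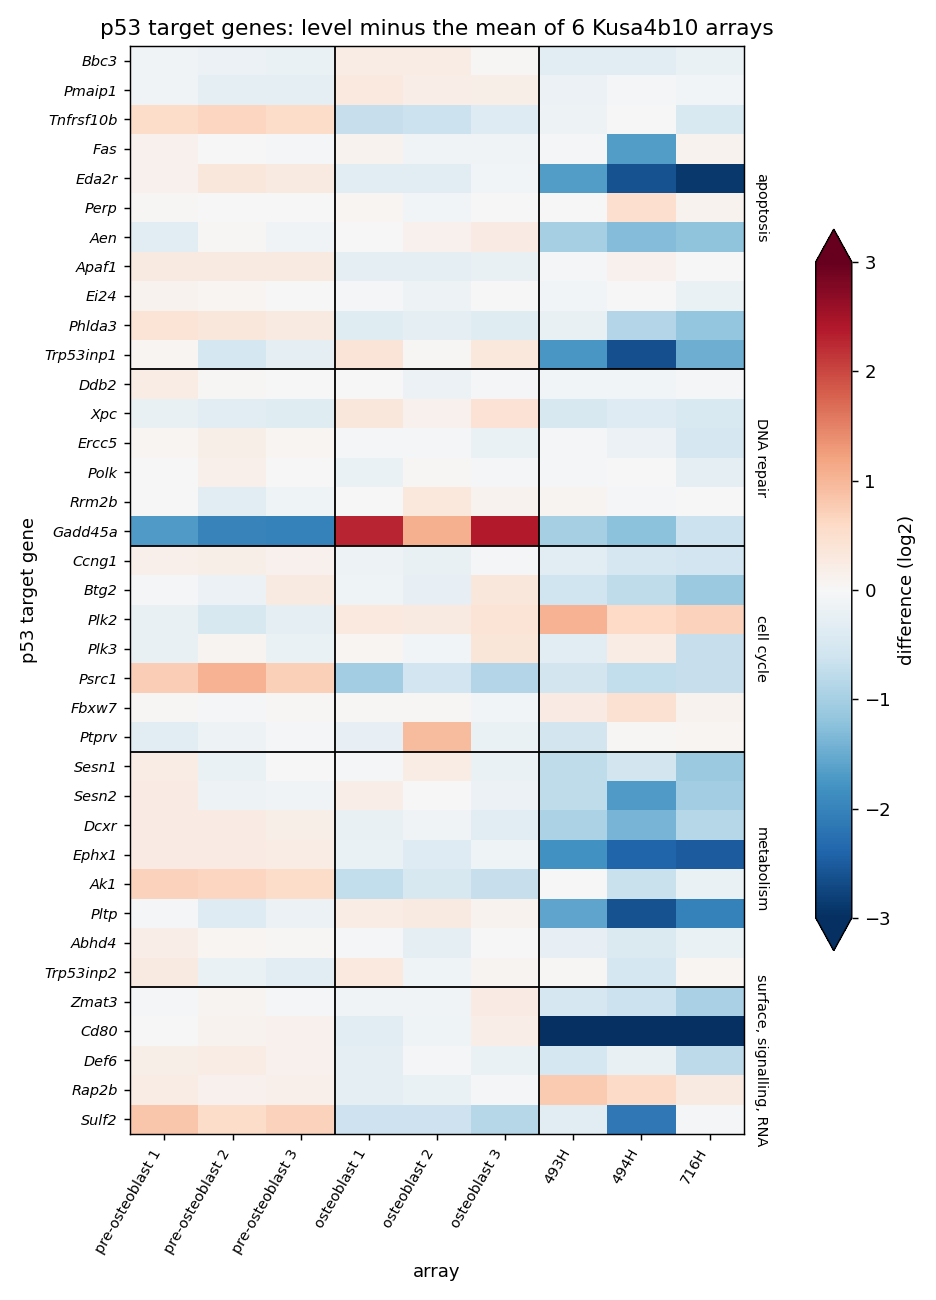
Heat map of the 37 p53 target genes (rows, grouped by role) on the 9 arrays (columns), coloured by the log2 level minus the mean of the 6 Kusa4b10 arrays, with the colour scale ending at 3 in either direction. The 3 tumour lines on the right are blue for Eda2r, Trp53inp1, Ephx1, Pltp and Cd80, and Gadd45a is red in the osteoblast cultures only.

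**Figure D2:**
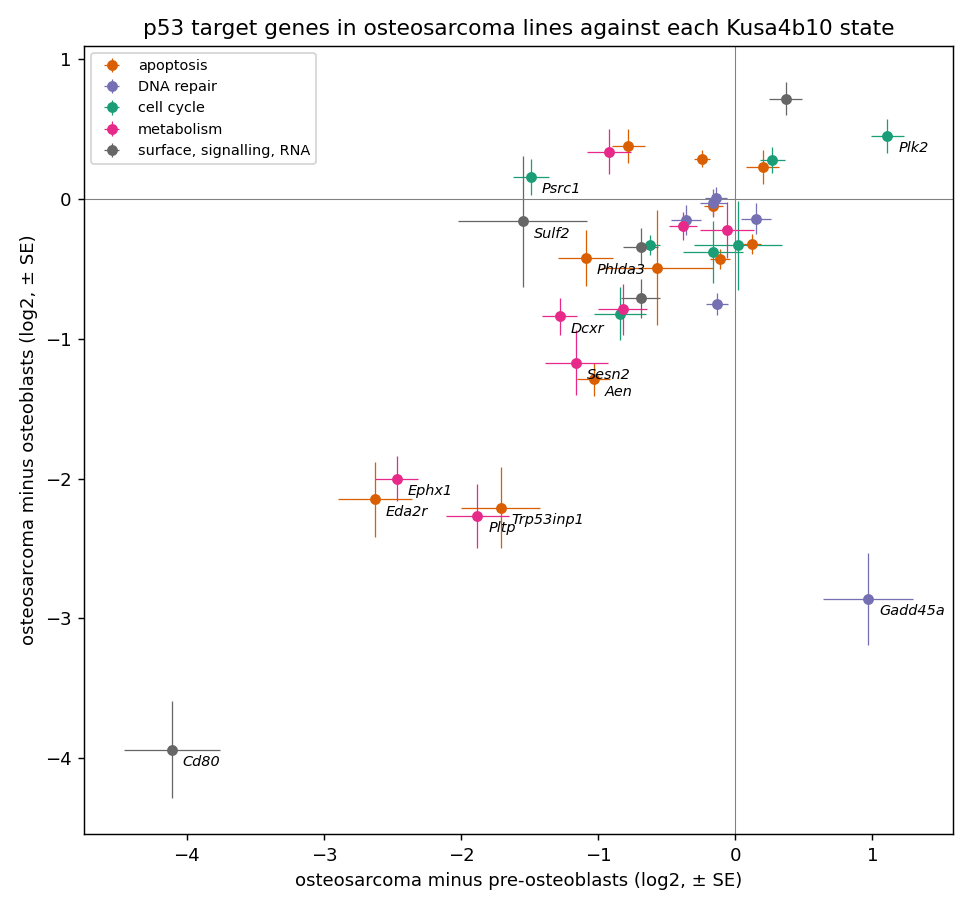
Each point is 1 of the 37 genes, with its difference from pre-osteoblasts on the x axis and from osteoblasts on the y axis (log2, bars are the SE of the fit), coloured by role. Cd80 (-4.11 and -3.94) lies farthest toward the lower left, Plk2 (1.11 and 0.45) toward the upper right, and Gadd45a (0.97 and -2.86) has opposite signs.

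Among the 11 apoptosis genes, 6 were lower in osteosarcoma than in pre-osteoblasts (background 13.5%). Against osteoblasts 5 were lower (background 12.7%) and 2 higher (14.7%). The death receptor Eda2r, which binds ectodysplasin A2, was at 7.80, 6.86 and 6.58 in 493H, 494H and 716H. It was at 9.15, 9.15 and 9.38 in osteoblasts and at 9.59, 9.81 and 9.73 in pre-osteoblasts. All lines lay below all cultures, 6.19-fold below pre-osteoblasts (-2.63 ± 0.27, adjusted p = 3.86e-04 with limma) and 4.44-fold below osteoblasts (-2.15 ± 0.27, adjusted p = 7.44e-04). Trp53inp1, a stress protein that promotes p53-dependent death and autophagy, was at 10.20, 9.31 and 10.48 in the lines, 12.35, 11.98 and 12.27 in osteoblasts, and 12.01, 11.43 and 11.68 in pre-osteoblasts. It was 4.63-fold lower than in osteoblasts (-2.21 ± 0.29, adjusted p = 8.85e-04) and 3.28-fold lower than in pre-osteoblasts (-1.71 ± 0.29, adjusted p = 0.00369). All lines lay below all cultures, while the Kusa4b10 states overlapped with each other. Aen encodes a nuclease that degrades DNA and RNA during apoptosis. Its levels were 8.21, 7.90 and 7.99 in the lines, 9.21, 9.33 and 9.44 in osteoblasts and 8.87, 9.23 and 9.10 in pre-osteoblasts. Aen was lower by close to 1 log2 against each state (-1.29 ± 0.12 and -1.03 ± 0.12, adjusted p = 1.74e-04 and 5.86e-04).

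Phlda3, a lipid-binding inhibitor of the survival kinase Akt, was at 10.60, 9.94 and 9.66 in the lines, 10.45, 10.54 and 10.46 in osteoblasts and 11.23, 11.16 and 11.08 in pre-osteoblasts. It was lower than in pre-osteoblasts (-1.09 ± 0.20, adjusted p = 0.00582), while 493H overlapped the osteoblasts, and the difference from osteoblasts (-0.42 ± 0.20) passed only without 493H (adjusted p = 0.00254). Tnfrsf10b, the receptor for the death ligand TRAIL, was at 11.04, 11.17 and 10.73 in the lines, 10.49, 10.53 and 10.79 in osteoblasts and 11.74, 11.82 and 11.73 in pre-osteoblasts. It was lower than in pre-osteoblasts (-0.78 ± 0.12, adjusted p = 0.00262). Against osteoblasts it was 0.38 ± 0.12 higher, with an adjusted p of 0.0499 that rose to between 0.0726 and 0.159 without 493H, 494H, osteoblast replicate 1 or 2, or any 1 pre-osteoblast array. Apaf1, the scaffold of the apoptosome, lay between the states, lower than pre-osteoblasts (-0.24 ± 0.06) and higher than osteoblasts (0.29 ± 0.06). The former call was lost without 493H (adjusted p = 0.0510) or any 1 pre-osteoblast array (0.0505 to 0.0517).

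The BH3-only genes Bbc3 and Pmaip1 encode Puma and Noxa, which trigger mitochondrial death. Bbc3 was at 7.85, 7.85 and 7.98 in the lines, 8.38, 8.39 and 8.21 in osteoblasts and 8.06, 7.99 and 7.98 in pre-osteoblasts. It was lower than in osteoblasts (-0.43 ± 0.07, adjusted p = 0.00216), and the lines came out just below all cultures, with 716H and pre-osteoblast replicate 3 equal to 2 decimals. Pmaip1 was lower than in osteoblasts by a similar amount (-0.32 ± 0.07, adjusted p = 0.00851). Neither passed against pre-osteoblasts (-0.11 ± 0.07 and 0.12 ± 0.07). Fas, the receptor of Fas ligand, was at 7.63 and 7.76 in 493H and 716H, within the range of the cultures (7.54 to 7.79), and at 5.98 in 494H. Fas did not pass against either state (-0.57 ± 0.41 and -0.49 ± 0.41), and without 494H its difference from osteoblasts was 0.08. Perp, a membrane protein of desmosomes (0.20 ± 0.12 and 0.23 ± 0.12), and Ei24, an endoplasmic reticulum protein (-0.16 ± 0.07 and -0.05 ± 0.07), did not pass either, and with arrays centred on their medians the Ei24 difference from osteoblasts was 0.02.

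**Figure D3:**
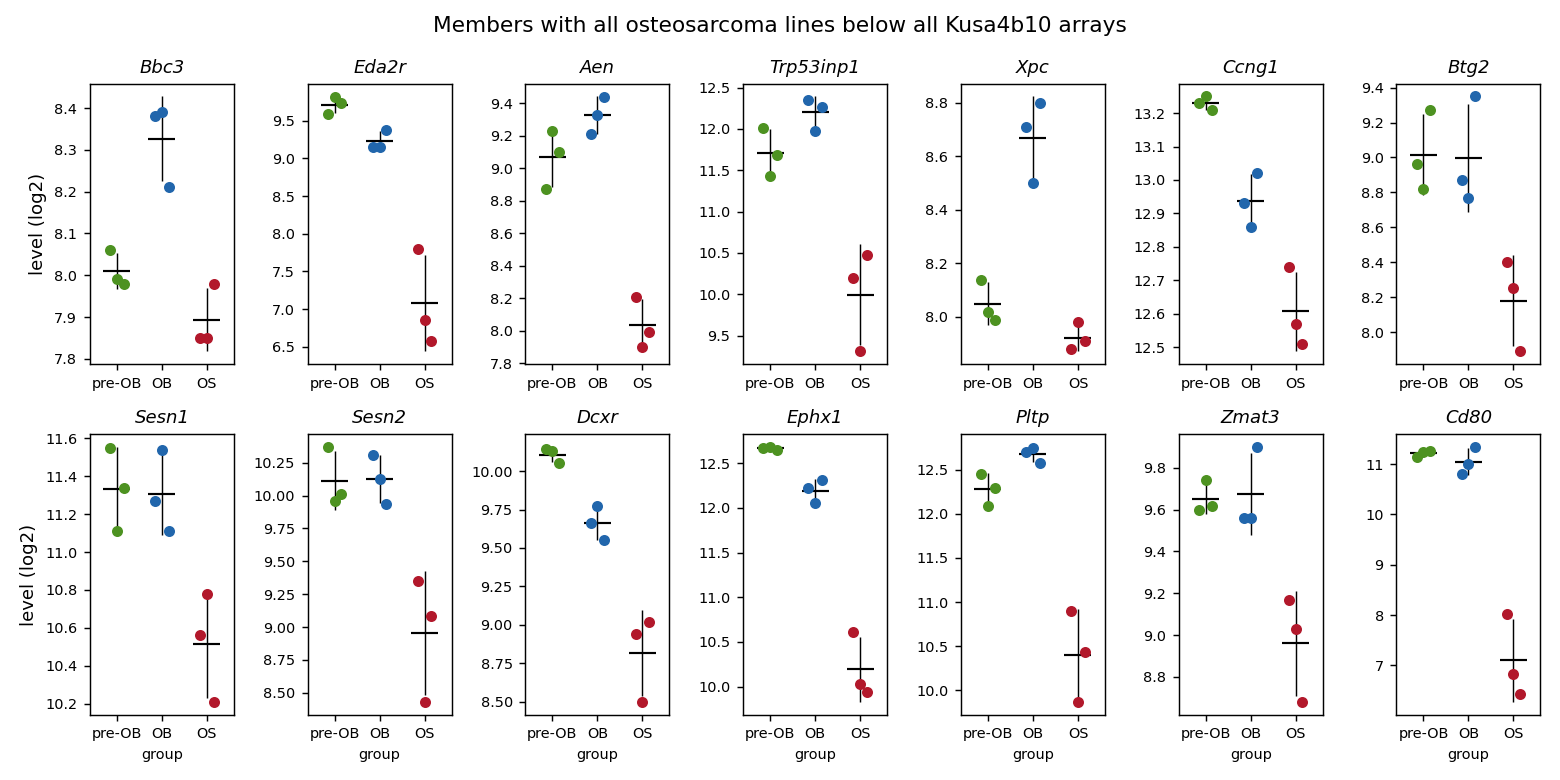
Log2 levels of the 14 genes whose osteosarcoma lines (OS, red) all lie below the pre-osteoblast (pre-OB, green) and osteoblast (OB, blue) arrays, with 1 point per array, the group mean as a horizontal bar and ± 1 SD as a vertical bar; the y axes do not start at 0 and differ between panels. The gap is widest for Cd80, from 8.03 in the highest line to 10.81 in the lowest culture, and nearly closed for Bbc3 and Xpc.

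Of the 6 repair genes none was called against pre-osteoblasts with limma (background 13.5% lower and 9.96% higher). An unadjusted p below 0.05 was reached by 2 of them, 1 in each direction. Against osteoblasts 2 of the 6 were lower (background 12.7%). Ddb2 and Xpc encode the sensors of ultraviolet damage in nucleotide excision repair. Ddb2 was at 7.88, 7.89 and 7.92 in the lines and 7.79 to 8.18 in the cultures, and did not pass in any comparison. Xpc was at 7.88, 7.98 and 7.91 in the lines, 8.14, 8.02 and 7.99 in pre-osteoblasts and 8.71, 8.50 and 8.80 in osteoblasts. It was 1.68-fold lower in the lines than in osteoblasts (-0.75 ± 0.08, adjusted p = 4.89e-04), and the osteoblast arrays stood apart from the other groups. The endonuclease gene Ercc5 was at -0.36 ± 0.11 against pre-osteoblasts (adjusted p = 0.0505), and it passed without 493H (0.0263). Polk, a translesion polymerase, and Rrm2b, the p53-inducible subunit of ribonucleotide reductase, differed from each state by at most 0.16 in size. The median difference of the repair genes was -0.14 against either state.

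Gadd45a, which binds PCNA and stress kinases and links damage to repair and arrest, was at 8.01, 7.71 and 7.70 in pre-osteoblasts, 8.73, 8.50 and 9.08 in the lines and 12.01, 10.78 and 12.11 in osteoblasts. The 3 groups did not overlap, and the lines lay between the Kusa4b10 states. Gadd45a was 7.27-fold lower in the lines than in osteoblasts (-2.86 ± 0.33, adjusted p = 5.45e-04). Against pre-osteoblasts it was 0.97 ± 0.33 above (adjusted p = 0.0723), which passed without osteoblast replicate 2 (0.00528), the lowest osteoblast culture for this gene.

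Of the 7 cell cycle genes, 3 were lower and 1 higher in osteosarcoma than in pre-osteoblasts (background 13.5% and 9.96%). Against osteoblasts 2 were lower and 2 higher (background 12.7% and 14.7%). Ccng1, which encodes cyclin G1 and is a standard p53 target, was at 12.74, 12.57 and 12.51 in the lines, 12.93, 12.86 and 13.02 in osteoblasts and 13.23, 13.25 and 13.21 in pre-osteoblasts. The lines were lowest, by -0.62 ± 0.07 against pre-osteoblasts (adjusted p = 6.44e-04) and -0.33 ± 0.07 against osteoblasts (adjusted p = 0.00994, and 0.0514 with arrays centred on their medians). Btg2, an antiproliferative gene that recruits mRNA deadenylases, was at 8.40, 8.25 and 7.89 in the lines, 8.87, 8.77 and 9.35 in osteoblasts and 8.96, 8.82 and 9.27 in pre-osteoblasts. It was about equally lower against both states (-0.84 ± 0.19 and -0.82 ± 0.19, adjusted p = 0.0154 and 0.0141), and the call against pre-osteoblasts was lost without pre-osteoblast replicate 3 (0.0572).

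Plk2, a polo-like kinase of the damage response, went the other way. It was at 10.76, 10.30 and 10.41 in the lines, 10.01, 9.98 and 10.13 in osteoblasts and 9.49, 9.22 and 9.42 in pre-osteoblasts. The 3 groups were fully separated, and the lines were 2.16-fold above pre-osteoblasts (1.11 ± 0.12, adjusted p = 5.95e-04). Against osteoblasts Plk2 was 0.45 ± 0.12 higher (adjusted p = 0.0285), which no longer passed without 493H (0.0545) or osteoblast replicate 1 (0.0899), 2 (0.0840) or 3 (0.0512). Plk3, its relative, did not pass (-0.16 ± 0.22 and -0.38 ± 0.22), and passed against osteoblasts only without 494H (adjusted p = 0.0326). Psrc1, a spindle protein, was at 9.54, 9.35 and 9.40 in the lines and 9.05, 9.53 and 9.21 in osteoblasts, which overlapped, and at 10.83, 11.13 and 10.81 in pre-osteoblasts. It was 2.81-fold lower in the lines than in pre-osteoblasts (-1.49 ± 0.13, adjusted p = 2.34e-04).

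Fbxw7, the substrate receptor of a ubiquitin ligase that degrades cyclin E and Myc, was at 7.77, 7.96 and 7.63 in the lines and 7.44 to 7.55 in the cultures. Its difference was small, 0.28 ± 0.09 against osteoblasts (adjusted p = 0.0442) and 0.27 ± 0.09 against pre-osteoblasts (0.0541). The osteoblast call was lost without 493H, 494H or any 1 culture (0.0620 to 0.140) and with the mean of its probe sets (0.242), and the pre-osteoblast difference passed without 716H (0.0164). The other Fbxw7 probe set was at 4.55 to 4.89 on all arrays. Ptprv, a receptor tyrosine phosphatase of the osteoblast lineage, was at 7.52, 8.10 and 8.14 in the lines, 7.83, 9.03 and 7.88 in osteoblasts and 7.76, 7.92 and 8.03 in pre-osteoblasts. Only osteoblast replicate 2 stood apart, and Ptprv passed in no comparison.

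Of the 8 metabolic targets 7 were lower than in pre-osteoblasts (background 13.5%) and 5 lower than in osteoblasts (12.7%), at medians of -1.04 and -0.81. Ephx1, the microsomal epoxide hydrolase that detoxifies reactive epoxides, was at 10.61, 10.03 and 9.94 in the lines, 12.22, 12.05 and 12.31 in osteoblasts and 12.67, 12.68 and 12.65 in pre-osteoblasts. It was 5.56-fold below pre-osteoblasts (-2.47 ± 0.16, adjusted p = 6.32e-05) and lower than in osteoblasts as well (-2.00 ± 0.16, adjusted p = 1.15e-04). Pltp encodes a phospholipid transfer protein. It was at 10.90, 9.87 and 10.44 in the lines, 12.70, 12.74 and 12.58 in osteoblasts and 12.45, 12.09 and 12.29 in pre-osteoblasts. All lines lay well below all cultures (-2.27 ± 0.23 against osteoblasts and -1.88 ± 0.23 against pre-osteoblasts, adjusted p = 2.94e-04 and 8.19e-04).

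The sestrins restrain mTORC1 when amino acids are short and limit peroxide damage. Sesn1 was at 10.56, 10.78 and 10.21 in the lines, 11.27, 11.54 and 11.11 in osteoblasts and 11.55, 11.11 and 11.34 in pre-osteoblasts. Sesn2 was at 9.35, 8.43 and 9.08 in the lines, 10.31, 10.13 and 9.94 in osteoblasts and 10.37, 9.96 and 10.01 in pre-osteoblasts. For both genes every line lay below every culture, while the cultures overlapped with each other. Sesn2 was 2.23-fold and 2.25-fold lower than in pre-osteoblasts and osteoblasts (-1.16 ± 0.23 and -1.17 ± 0.23, adjusted p = 0.00754 and 0.00582), and Sesn1 was 1.76-fold and 1.73-fold lower (-0.82 ± 0.18 and -0.79 ± 0.18, adjusted p = 0.0111 and 0.0108). Dcxr, a carbonyl and xylulose reductase, was at 8.94, 8.50 and 9.02 in the lines, 9.66, 9.77 and 9.55 in osteoblasts and 10.14, 10.13 and 10.05 in pre-osteoblasts. It was lower by -1.28 ± 0.13 and -0.84 ± 0.13 (adjusted p = 3.70e-04 and 0.00200).

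Ak1, adenylate kinase 1, was at 11.27, 10.61 and 11.09 in the lines, 10.55, 10.81 and 10.59 in osteoblasts and 11.97, 11.93 and 11.83 in pre-osteoblasts. It was lower than in pre-osteoblasts (-0.92 ± 0.16, adjusted p = 0.00400), and 494H lay within the osteoblast range. Against osteoblasts Ak1 was at 0.34 ± 0.16, and passed only without 494H (adjusted p = 0.00619). Abhd4, a lipid hydrolase, was slightly lower than in pre-osteoblasts (-0.38 ± 0.10, adjusted p = 0.0227), which was lost with arrays centred on their medians (0.0534), without 494H (0.0564) and without pre-osteoblast replicate 1 (0.0796) or 2 (0.0546). Trp53inp2, the autophagy relative of Trp53inp1, was the only metabolic member that passed in neither tumour comparison (-0.06 ± 0.20 and -0.22 ± 0.20).

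Cd80, a ligand of the T cell receptors CD28 and CTLA-4, showed the largest difference of all 37 genes between the lines and either state. It was at 8.03, 6.84 and 6.44 in the lines, 10.81, 11.00 and 11.34 in osteoblasts and 11.15, 11.25 and 11.26 in pre-osteoblasts. The lines were 17.3-fold below pre-osteoblasts (-4.11 ± 0.35, adjusted p = 1.95e-04) and 15.4-fold below osteoblasts (-3.94 ± 0.35, adjusted p = 1.84e-04). The other Cd80 probe set, at 6.98, 6.44 and 6.69 in the lines and 9.01 to 9.49 in the cultures, also separated the lines from all cultures but by less. With the mean of both probe sets the differences were smaller, -3.38 ± 0.23 and -3.17 ± 0.23 (adjusted p = 7.69e-05 and 7.95e-05), so the fold depends on the probe set. Zmat3, an RNA-binding zinc finger protein that regulates splicing and mRNA stability, was at 9.17, 9.03 and 8.68 in the lines, 9.56, 9.56 and 9.90 in osteoblasts and 9.60, 9.74 and 9.62 in pre-osteoblasts. It was lower against both states (-0.69 ± 0.14 and -0.71 ± 0.14, adjusted p = 0.00815 and 0.00579).

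Rap2b, a small GTPase of the Ras family, was at 9.42, 9.20 and 8.91 in the lines, 8.35, 8.44 and 8.60 in osteoblasts and 8.87, 8.77 and 8.79 in pre-osteoblasts. It was higher than in osteoblasts (0.72 ± 0.12, adjusted p = 0.00356), and against pre-osteoblasts (0.37 ± 0.12, adjusted p = 0.0681) it passed without 716H (0.0103). Def6, a guanine nucleotide exchange factor for Rac, was lower than in pre-osteoblasts (-0.69 ± 0.13, adjusted p = 0.00690), and at -0.34 ± 0.13 against osteoblasts, which passed without 494H (adjusted p = 0.00990). Sulf2, a sulfatase that edits heparan sulfate outside the cell, was at 10.86, 9.06 and 11.15 in the lines, 10.60, 10.60 and 10.35 in osteoblasts and 12.05, 11.77 and 11.89 in pre-osteoblasts. It was lower than in pre-osteoblasts (-1.55 ± 0.47, adjusted p = 0.0452), a call lost without any 1 osteoblast array (0.0682 to 0.0731) or any 1 pre-osteoblast array (0.0933 to 0.125). Without 494H its difference from pre-osteoblasts was -0.90 (adjusted p = 0.00229). Its difference from osteoblasts, -0.16 ± 0.47 and not called, was then 0.49 and passed as higher (0.0249).

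The comparison of osteoblasts with pre-osteoblasts asks how the same targets differ within 1 line before and after 21 days in osteoblastic medium. Here 7 genes were lower (background 15.8%) and 5 higher (10.3%), with a median difference of -0.08 against 0.00 over all genes. The share called lower in this fit, 18.9%, was near the background, and other fits given below differed. Gadd45a rose 14.2-fold (3.83 ± 0.33, adjusted p = 1.49e-04), more than any other of the 37 genes. Plk2 (0.66 ± 0.12, adjusted p = 0.00531), Xpc (0.62 ± 0.08, adjusted p = 0.00124), Pmaip1 (0.44 ± 0.07, adjusted p = 0.00210) and Bbc3 (0.32 ± 0.07, adjusted p = 0.00954) also rose. In each of these genes the 3 osteoblast arrays lay above the 3 pre-osteoblast arrays. A call favours such separation, and its share among all genes was not taken. Pmaip1 was at 7.69, 7.59 and 7.56 in osteoblasts and at 7.28, 7.13 and 7.10 in pre-osteoblasts, with the lines at 7.22, 7.33 and 7.32.

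Among the called genes Psrc1 fell most, 3.15-fold (-1.66 ± 0.13, adjusted p = 1.10e-04), followed by Ak1 (-1.26 ± 0.16, adjusted p = 7.94e-04) and Tnfrsf10b (-1.16 ± 0.12, adjusted p = 3.72e-04). Apaf1 fell by 0.53 on the log2 scale (adjusted p = 4.06e-04), from 10.20, 10.20 and 10.19 to 9.63, 9.67 and 9.70. Phlda3 (-0.67 ± 0.20, adjusted p = 0.0405), Dcxr (-0.45 ± 0.13, adjusted p = 0.0358) and Ccng1 (-0.29 ± 0.07, adjusted p = 0.0169) were called as well. The Phlda3 call was lost without any 1 Kusa4b10 array (0.0811 to 0.114). The Dcxr call was lost without any 1 of them except osteoblast replicate 2 (0.0744 to 0.122). Ccng1 no longer passed when osteoblast replicate 1 (0.0555) or 2 (0.0545) was left out, or pre-osteoblast replicate 2 (0.0566).

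The count of lower genes depended on the arrays fitted. It was 12 without 716H (32.4%, against 17.2% of all genes) and 13 when only the Kusa4b10 arrays were fitted (35.1%, against 19.0%). Without osteoblast replicate 1 or pre-osteoblast replicate 2 the count was 4 (10.8%, against 11.8% and 12.7% of all genes). Among the genes gained were Sulf2 (-1.38 ± 0.47, adjusted p = 0.0624, and 1.80e-04 without 494H or 0.0377 without 716H), Ephx1 (-0.47 ± 0.16, adjusted p = 0.0653, and 0.00374 without 493H or 0.0439 without 716H) and Eda2r (-0.48 ± 0.27, adjusted p = 0.252, and 0.0137 without 493H). Def6 (-0.35 ± 0.13) was gained without 494H (0.0219) or 716H (0.0310), Rap2b (-0.35 ± 0.12) without 493H (0.0363) or 716H (0.0232), and Ercc5 (-0.21 ± 0.11) without 716H (0.0476). For these 6 genes the osteoblast arrays all lay below the pre-osteoblast arrays. They were picked by their calls, which favour separated arrays, and the share of all genes so separated was not taken. Of the 12 genes lower in osteosarcoma against both states, Ccng1 and Dcxr were called between the states in the fit to all 9 arrays. With only the Kusa4b10 arrays fitted, Eda2r (0.00805), Ephx1 (0.00417) and Pltp (0.0268) passed as well.

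**Figure D4:**
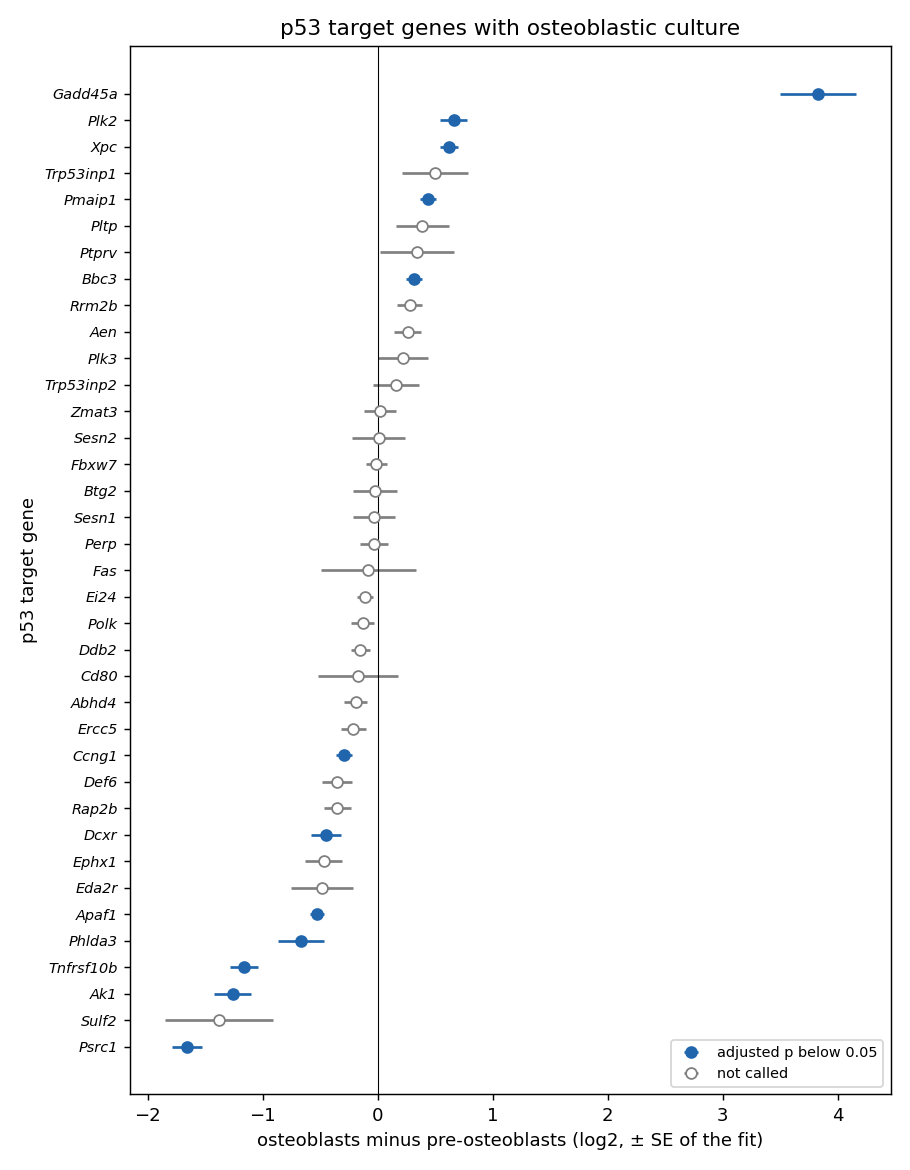
Difference between osteoblasts and pre-osteoblasts for each of the 37 genes (log2, bars are the SE of the fit), ordered by size, with filled points for genes called at an adjusted p below 0.05. Gadd45a stands alone on the right at 3.83, and Psrc1 (-1.66), Ak1 (-1.26) and Tnfrsf10b (-1.16) are the largest called falls.

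Other gene lists also held called differences, and their relation to the p53 targets was not tested. All 16 measured mitotic genes of a list that p53 represses through p21 and the DREAM complex were lower in osteoblasts than in pre-osteoblasts (background 15.8%, median -2.14). All 16 were higher in osteosarcoma than in osteoblasts (background 14.7%, median 2.40). Against pre-osteoblasts none of the 16 was called in osteosarcoma with limma (background 13.5% lower and 9.96% higher, median 0.20), and 1 had an unadjusted p below 0.05. Of 14 integrated stress response genes, which act downstream of ATF4, 9 were higher and 1 lower in osteoblasts than in pre-osteoblasts (background 10.3% and 15.8%). Among the higher genes were Nupr1 (2.57 ± 0.28) and Ddit3 (2.47 ± 0.25). In osteosarcoma 8 of the 14 were lower and 1 was higher than in osteoblasts (background 12.7% and 14.7%). Against pre-osteoblasts 4 of the 14 were higher and 1 lower (background 9.96% and 13.5%). The part of growth state, stress response or adipocyte-like cells in the changes of Gadd45a, Psrc1 and the other members was not tested.

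The lines differed from each other more than the cultures did. The median SD of the 37 genes was 0.259 over the lines, 0.129 over osteoblasts and 0.0807 over pre-osteoblasts, where all genes gave 0.118, 0.0823 and 0.0872. Each line has 1 array, so a difference between lines has no replicate check. The range over the lines exceeded 1 log2 for 6 genes (16.2%, against 4.94% of all genes), namely Sulf2 (2.09), Fas (1.78), Cd80 (1.59), Eda2r (1.21), Trp53inp1 (1.17) and Pltp (1.04). The share over all genes was not restricted to bright genes, while 32 of the 37 members lie above the median level. 494H was lowest for Sulf2, Fas, Trp53inp1 and Pltp, and 716H was lowest for Cd80 and Eda2r. Across the 37 genes 493H was highest for 16 and lowest for 6, where over all genes it was highest for 24.0% and lowest for 39.0%. Measured from the mean of the Kusa4b10 groups, the median over the 37 genes was -0.32 in 493H, -0.51 in 494H and -0.45 in 716H, against -0.03, -0.01 and 0.00 over all genes. More than 1 log2 below that mean were 5 of the 37 genes in 493H, 11 in 494H and 10 in 716H, where between 1.91% (493H) and 3.14% (494H) of all genes lay that far below.

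**Figure D5:**
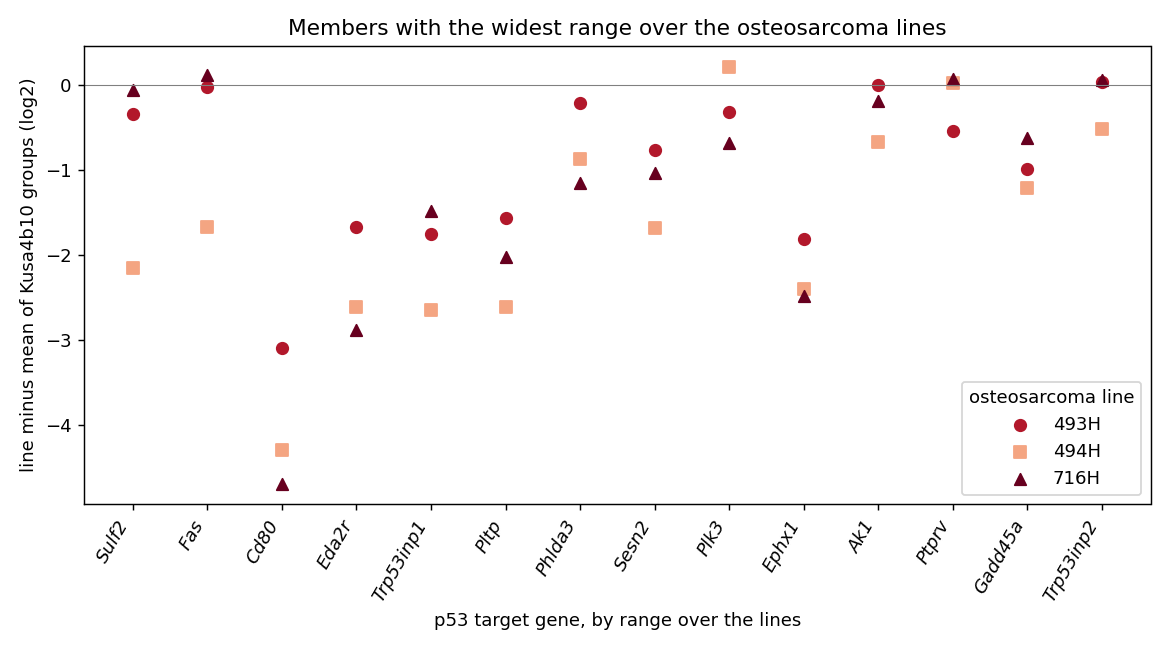
Log2 level of each osteosarcoma line minus the mean of the Kusa4b10 groups, for the 14 genes that varied most between lines, ordered by their range; symbols mark the lines and the grey line is the Kusa4b10 mean. 494H sits apart for Sulf2 (-2.15) and Fas (-1.67), and 493H is closest to the Kusa4b10 mean for Cd80 (-3.10), Eda2r (-1.67) and Phlda3 (-0.22).

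Mdm2, the ubiquitin ligase that degrades p53 and is itself a p53 target, varied as well. It was at 12.14 in 493H, above all cultures (10.92 to 11.20), and at 10.22 and 9.92 in 494H and 716H, below all cultures. Its group difference therefore did not pass against either state (-0.34 ± 0.49 and -0.19 ± 0.49).

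Of 29 measured regulators of p53, 4 were higher and 8 lower than in pre-osteoblasts (background 9.96% and 13.5%, median -0.05). Against osteoblasts 7 were higher and 6 lower (background 14.7% and 12.7%, median -0.03). Cdkn2a, whose p19Arf product blocks Mdm2, was at 11.79, 11.46 and 12.28 in the lines and 7.34 to 7.55 in the cultures. Chek1, a checkpoint kinase, was 2.46 ± 0.29 higher than in osteoblasts, and Setd7, a lysine methyltransferase, was higher than in both states (0.77 ± 0.10 and 1.09 ± 0.10). Trp63, a p53 family member that binds the same elements, was lower than in both states (-1.87 ± 0.11 and -0.61 ± 0.11), and it was also lower in osteoblasts than in pre-osteoblasts (-1.26 ± 0.11).

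A further list of p53 targets, 24 of them measured, gave 5 lower and 1 higher than in pre-osteoblasts (background 13.5% and 9.96%, median -0.08). Against osteoblasts it gave 3 lower and 6 higher (background 12.7% and 14.7%, median -0.01). Zfp365 (-2.18 ± 0.16 against pre-osteoblasts and -1.09 ± 0.16 against osteoblasts) and Bid, a BH3-only death gene (-0.75 ± 0.12 and -1.16 ± 0.12), were lower than in both states. Tap1, the peptide transporter of antigen presentation, was lower than in pre-osteoblasts (-2.10 ± 0.30) and at -0.53 ± 0.30 against osteoblasts, which did not pass. Igfbp3, which binds insulin-like growth factors, was higher in the lines than in both states (2.48 ± 0.14 and 2.43 ± 0.14), with 9.43, 9.53 and 9.92 in the lines and 6.96 to 7.32 in the cultures. Ckap2, a spindle protein, was at -0.03 ± 0.31 against pre-osteoblasts and was 2.07 ± 0.31 higher than in osteoblasts, as were the mitotic genes described above.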

How the data were processed

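Biotin-labelled total RNA of 9 samples was hybridised, 1 array each. The authors deposited log2 expression levels; the submitters' processing notes name RMA and the build mm9, and for its version and any filter the sources used here give nothing. RMA normalizes between arrays, so differences are relative to the other genes of an array, and it compresses differences near background. The table held 35556 probe sets. The platform annotation gave 21789 of them 1 gene symbol, 1621 several and 12146 none, and only the first were used; 21698 matched RefSeq by gene identifier and 0 symbols changed. Of the 999 genes with several probe sets, the brightest was taken (Cd80 and Fbxw7 among the members), which left 19938 genes.

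With limma 3.58.1 (R 4.3.3), 3 group means were fitted over the 9 arrays (lmFit, eBayes, no level filter, two-sided tests, Benjamini-Hochberg over all genes), for the 3 pairs of groups and for osteosarcoma against the mean of both Kusa4b10 groups. The pipeline was tested on simulated data. No pair of arrays in a group had more than 4.33% equal values. The number of arrays limits the precision. The members and lists were chosen with earlier results of these data known. All 37 members are reported, with values per array for those called with a change of at least 1 log2 in a pair of groups or with all lines outside the range of the cultures; of the other lists, counts, up to 4 called genes and 1 other per comparison are named. Some context genes were not analysed here. The alternatives were a level filter, repeated quantile normalization, the mean of probe sets, arrays centred on medians, an intensity trend, array weights per group, only the compared groups, a replicate block and leaving out each array.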

Additional observations from a re-analysis of the deposited data

How the results depend on the processing

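Of 76 called member differences in the 4 comparisons, 62 stayed called in the same direction under every alternative run, and 0 changed sign. Higher calls against pre-osteoblasts, 1 as reported, were 3 with only genes above the median level (against 16.2% of those genes) or with quantile normalization again (12.8% of all genes). They were 2 with arrays centred on their medians (12.1%) or only the compared groups (7.26%), and 1 to 3 leaving out each array (6.14% to 10.6%). The median difference of the members, -0.57 as reported, became -0.69 with the level filter, -0.52 with quantile normalization and -0.69 to -0.39 leaving out each array. Higher calls against osteoblasts, 5 as reported, were 2 with only the compared groups (against 12.2% of all genes) and 2 to 5 leaving out each array (11.1% to 15.8%). The median of -0.33 became -0.26 with centred arrays and -0.39 to -0.33 leaving out each array. Lower calls between osteoblasts and pre-osteoblasts, 7 as reported, were 11 with array weights per group (29.7%, against 19.2% of all genes). They were 13 with only the compared groups (35.1%, against 19.0%) and 4 to 12 leaving out each array (against 11.7% to 17.9% of all genes). The median of -0.08 was -0.04 with quantile normalization and -0.14 to -0.05 leaving out each array. Against both states together the median of -0.44 became -0.50 with the level filter, -0.38 with centred arrays and -0.48 to -0.29 leaving out each array. The cause was not tested.

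With the replicate number as a block in a fit of the Kusa4b10 arrays, 12 members were lower in osteoblasts than in pre-osteoblasts. Their share was 32.4%, against 17.9% of all genes, and 7 members were higher (background 11.6%). Samples sharing a number deviated together with correlations of 0.15, 0.18 and 0.03 over all genes, and samples with unlike numbers with -0.16 to 0.08. Osteoblast replicate 3 correlated best with pre-osteoblast replicate 1 (0.08). Whether samples sharing a number were paired cannot be told from these values.

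In 21 member differences, 0 of them called as reported, the sign changed; Sulf2 against osteoblasts passed with the changed sign without 494H (0.49, adjusted p = 0.0249). With centred arrays Ei24 (0.02) and Polk (0.03) against osteoblasts and Sesn2 (0.00) between the Kusa4b10 states did so, and with quantile normalization Btg2 (0.02) and Sesn1 (0.02) between those states. Leaving out each array gave, against pre-osteoblasts, Ptprv -0.09 to 0.22, Trp53inp2 -0.17 to 0.13 and Plk3 -0.39 to 0.06. Against osteoblasts it gave Ei24 -0.09 to 0.00, Polk -0.10 to 0.06, Fas -0.81 to 0.08, Sulf2 -0.56 to 0.49, Ddb2 -0.04 to 0.04 and Ptprv -0.53 to 0.07. Between the Kusa4b10 states it gave Btg2 -0.20 to 0.11, Sesn1 -0.15 to 0.08, Sesn2 -0.08 to 0.14, Perp -0.06 to 0.01, Ptprv -0.05 to 0.55, Fbxw7 -0.04 to 0.03 and Zmat3 -0.09 to 0.08. Against both states together it gave Rrm2b -0.04 to 0.05, Ptprv -0.27 to 0.05, Fas -0.85 to 0.04, Apaf1 -0.02 to 0.06 and Trp53inp2 -0.24 to 0.05.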

Other observations

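Markers of other cell types gave 2 patterns outside the p53 targets, chosen after their values were seen. Thy1, a surface protein of fibroblasts and stromal cells, was at 11.95, 11.00 and 12.39 in 493H, 494H and 716H. It was between 6.79 and 7.11 on all Kusa4b10 arrays and higher in the lines than in both states (4.82 ± 0.30 each, adjusted p = 5.28e-05 and 4.42e-05 with limma). The fibroblast markers as a list did not share this pattern. Of the 8, 1 was higher and 1 lower than in pre-osteoblasts (background 9.96% and 13.5%, median 0.02). Against osteoblasts 3 were higher and 1 lower (background 14.7% and 12.7%, median 0.10). Tek, the angiopoietin receptor of endothelial cells, was at 9.02 in 493H, 6.28 in 494H and 7.15 in 716H, against 6.06 to 6.30 on the Kusa4b10 arrays, and did not pass (1.31 ± 0.57 against pre-osteoblasts). The endothelial markers Pecam1, Cdh5 and Kdr stayed between 6.14 and 6.66 on all arrays.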
